A study of Mus musculus with 45 samples.

Results

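LM2-LM and LM1-LM are mouse mammary tumour cell lines that had passed through the lung as metastases more than once, and their messenger RNA was compared in control medium. The comparison took the libraries of these lines whose treatment was labelled Control, which gave 3 cultures of LM2-LM and 3 cultures of LM1-LM, 6 of the 45 libraries of the series. All genes on the 19 autosomes were considered. The count table listed 28454 genes, of which 27336 were autosomal and 12663 had enough reads to be tested.

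The study sequenced polyadenylated RNA from a panel of lines grown from Myc-driven mammary tumours and from the lung metastases they gave. The lineage began with Myc310, a mammary tumour line from an MMTV-MYC mouse, in which the mouse mammary tumour virus promoter drives the Myc transgene in mammary epithelium. Myc310 cells were placed in the mammary fat pad of FVB/NJ mice, and LM1, LM2 and LM3 were isolated from the lungs of tumour-bearing mice. LM1-LM was isolated from lungs after LM1 cells had been placed in the fat pad, and LM2-LM and LM3-LM are described as its biological replicates. The sources used here do not name the line that was injected to obtain LM2-LM. All lines of the lineage share the MMTV-MYC origin and culture in DMEM:F12 with serum, insulin, hydrocortisone and EGF, and LM2-LM and LM1-LM also share growth in FVB/NJ hosts.

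Cells were seeded at 250000 per well, and the sample records state that after 24 h the medium was replaced by control medium for 6 h. The series description limits this change of medium to some lines and lists LM1-LM among them without naming LM2-LM. LM1-LM also has libraries from cystine-free medium and LM2-LM does not, so that a difference in handling on the day cannot be told apart from a difference between the lines. Each line is 1 cell population, and its 3 cultures are called technical replicates by the submitters. The p-values below therefore measure the spread between cultures of 1 LM2-LM line and 1 LM1-LM line, and not the spread between animals.

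Cells that leave a mammary tumour, settle in the lung and grow out there pass through small founding populations, and a line recovered from a metastasis descends from those founders. Lines recovered separately from the same tumour model can thus differ in which genes are active or silent, in chromosome content, and in metabolic state. Signalling by bone morphogenetic proteins, extracellular matrix production and sterol synthesis are programmes in which mammary tumour lines commonly differ.

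The 6 libraries held 21779599 to 26303095 counts. Mitochondrial transcripts took 1.8 to 2% of counts in LM2-LM and 1.5 to 2% in LM1-LM. On the log2 scale of counts scaled to library size (CPM), cultures of LM2-LM correlated with each other across genes at 0.9924 to 0.9933, cultures of LM1-LM at 0.9919 to 0.9922, and cultures of different lines at 0.9691 to 0.9701. Of 8 mammary tumour markers, 3 were at 3 counts or fewer in every culture of both lines. The epithelial keratin genes Krt8 and Krt18 were abundant, with Krt8 between 812 and 871 CPM in the 6 cultures and Krt18 between 184 and 282 CPM. Krt7 (2.90 to 3.72 against 5.27 to 5.98 CPM) and Krt19 (2.63 to 3.42 against 4.08 to 5.90 CPM) were low, and lower in LM2-LM than in LM1-LM, both with a log2 fold change of -0.73. Other defining epithelial markers were absent from both lines: the adhesion gene Cdh1 was at 0 counts and Epcam at 3 counts or fewer in every culture.

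Markers of other lung cell types were mostly at the floor, defined here as 3 counts or fewer in each culture. The leukocyte marker Ptprc and the alveolar surfactant genes Sftpc and Sftpb were at 0. Of the listed markers in the file, 6 of 11 fibroblast, 6 of 7 leukocyte, 2 of 8 endothelial and 5 of 7 alveolar and airway markers were at the floor in both lines. The summed fibroblast markers reached 33.7 to 35.8 CPM in LM2-LM and 56.9 to 62.7 CPM in LM1-LM, of which the fibrillar collagen gene Col3a1 made up 30.6 and 56 CPM on average. The summed leukocyte markers were 14.2 to 18.5 CPM in LM2-LM and 11.7 to 13 CPM in LM1-LM, nearly all of it Cd68. Endothelial markers summed to 8.90 to 10.5 and 8.74 to 11.4 CPM, and alveolar and airway markers to 0.607 to 1.1 and 0.370 to 0.647 CPM. In bulk RNA, fewer cells of a type and less RNA per cell cannot be told apart.

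Close to every second gene tested differed between the lines, most of them by little. In edgeR's quasi-likelihood test, with p-values adjusted by Benjamini-Hochberg over all genes tested, 5693 of 12663 autosomal genes (45%) passed an adjusted p of 0.05, 3012 of them higher in LM2-LM (23.8%) and 2681 lower (21.2%). Of the genes that passed, 2744 (48.2%) differed by less than 1.2-fold and 1476 (25.9%) by 1.2 to 1.5-fold. A further 601 (10.6%) differed by 1.5 to 2-fold, 502 (8.82%) by 2 to 4-fold and 370 (6.5%) by more than 4-fold. The median log2 fold change of all genes tested was 0.01, and the median absolute log2 fold change was 0.16.

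The differences above 2-fold comprised 872 genes (6.89% of those tested), 489 higher in LM2-LM (3.86%) and 383 lower (3.02%). With at least 10 counts required in every library, which removes genes silent in any line, the count was 347 of 10676 genes tested, 169 higher and 178 lower. The 872 genes were mostly genes of low level, with a median of 2.19 CPM in whichever line was higher. Among genes that reached 10 CPM in the higher line, 217 of 8609 (2.52%) differed by more than 2-fold, 105 higher and 112 lower. Among genes that reached 100 CPM, 25 of 2537 (0.985%) did so, and the direction was then uneven, with 7 higher and 18 lower in LM2-LM. Without regard to the test, the 3 LM2-LM cultures all lay above the 3 LM1-LM cultures for 3469 genes (27.4%) and all lay below for 3093 genes (24.4%).

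The genes that rose most in LM2-LM were genes that LM1-LM barely transcribed. They were taken as the 12 protein-coding genes with the largest ratio of mean CPM among genes that passed the test, did not overlap between cultures and reached 10 CPM. A total of 2232 genes were eligible in this direction and 1961 in the other. Adjusted p-values of the 24 genes so named in either direction lay between 1.3e-24 and 8.31e-15 (edgeR's quasi-likelihood test). Where a line was at the floor, its level was set to that of 3 counts per library, and the fold is then a lower bound.

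Zfp704, a zinc finger gene, was at 41.9, 43.1 and 40.4 CPM in the 3 LM2-LM cultures and at 0 in all 3 LM1-LM cultures, which made it at least 322-fold higher in LM2-LM. Col4a3, on chromosome 1 at 82586921 to 82722059 (GRCm38, plus strand), encodes the alpha 3 chain of type IV collagen, a basement membrane component. Its level was 38.3, 36.9 and 37.7 CPM in LM2-LM and 0 in every LM1-LM culture, at least 290-fold higher. Col4a3 was also at 0 in all cultures of Myc310, LM1, LM2, LM3 and LM3-LM, so that among the 7 lines of the lineage its transcripts were detected in LM2-LM alone.

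Ligands of the bone morphogenetic protein family differed in opposite directions. Bmp7 was at 19.7, 20.6 and 20.0 CPM in LM2-LM, against 0, 0 and 0.231 CPM in LM1-LM, where only 5 counts were seen in 1 culture. The log2 fold change of Bmp7 was 8.02 ± 0.22 (SE, n = 3 cultures per line). Bmp6 had the reverse pattern, with 0.0764, 0.254 and 0 CPM in LM2-LM and 18.5, 21.5 and 17.9 CPM in LM1-LM, a log2 fold change of -7.42 ± 0.27. For both genes the cultures of the lines were far from overlapping. In the other lines, mean Bmp7 was 16.4 CPM in Myc310, 2.52 in LM1, 31.8 in LM2, 38.5 in LM3 and 35.2 in LM3-LM, so that LM1-LM held the lowest value. Mean Bmp6 was 14.5 CPM in LM1 and below 0.5 CPM in Myc310, LM2, LM3 and LM3-LM.

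Several of the remaining genes in this group were likewise present in most of the lineage and missing from LM1-LM. Ina, which encodes the neuronal intermediate filament alpha-internexin, was at 24.0, 25.6 and 23.3 CPM in LM2-LM and at 0 in LM1-LM, at least 187-fold higher. Rangrf, whose product binds the nuclear transport GTPase Ran, was at 23.7, 24.1 and 20.6 CPM in LM2-LM and had 2, 1 and 1 counts in LM1-LM, at least 176-fold higher. Zfp518b, another zinc finger gene, was at 17.2, 20.0 and 18.8 CPM in LM2-LM and at 0 in LM1-LM, at least 144-fold higher. These genes were detected in the other lines too: mean Ina was 17.7 CPM in Myc310, 2.79 in LM1 and 24.8 to 41.2 in LM2, LM3 and LM3-LM, mean Rangrf was 1.28 CPM in LM1 and 11.2 to 18.7 in the other lines, and mean Zfp518b was 0.679 CPM in LM1 and 12.1 to 24.0 in the other lines.

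Trpa1, an irritant-sensing cation channel, was at 19.3, 17.9 and 16.4 CPM in LM2-LM and had 3, 2 and 4 counts in LM1-LM, a log2 fold change of 7.05 ± 0.18. Its mean was 3.49 CPM in LM1 and 10.8 to 29 CPM in Myc310, LM2, LM3 and LM3-LM. Pf4, the chemokine platelet factor 4, was at 86.2, 81.1 and 80.9 CPM in LM2-LM and at 0.898, 1.40 and 1.02 CPM in LM1-LM, a log2 fold change of 6.21 ± 0.14. Pf4 was the most abundant gene of the group and was also high in LM2, at a mean of 41.9 CPM, whereas its mean was 0.599 to 2.46 CPM in Myc310, LM1, LM3 and LM3-LM.

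The last of the 12 were 2510009E07Rik, Gnb4, Rcsd1 and B4galnt4. For 2510009E07Rik the LM2-LM cultures were at 23.9, 22.9 and 21.2 CPM and the LM1-LM cultures at 0, 1 and 0 counts, at least 175-fold higher. The G protein beta subunit gene Gnb4 was at 16.6, 18.4 and 17.6 CPM against 1, 0 and 0 counts, at least 135-fold higher. Rcsd1, whose product interacts with actin capping protein, was at 12.6, 11.1 and 10.9 CPM in LM2-LM and at 0 in LM1-LM, at least 88.7-fold higher. B4galnt4, a glycosyltransferase gene, was at 26.7, 29 and 27.2 CPM against 0.299, 0.370 and 0.462 CPM, a log2 fold change of 6.18 ± 0.17. In all, 8 genes were at the floor in LM1-LM and at 10 CPM or more in LM2-LM (2510009E07Rik, Col4a3, Gnb4, Ina, Rangrf, Rcsd1, Zfp518b and Zfp704), and 2 showed the reverse, Cacnb2 and Pgk1-rs7. Pgk1-rs7 and the reverse set as a whole were picked out after their values were seen.

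**Figure D1:**
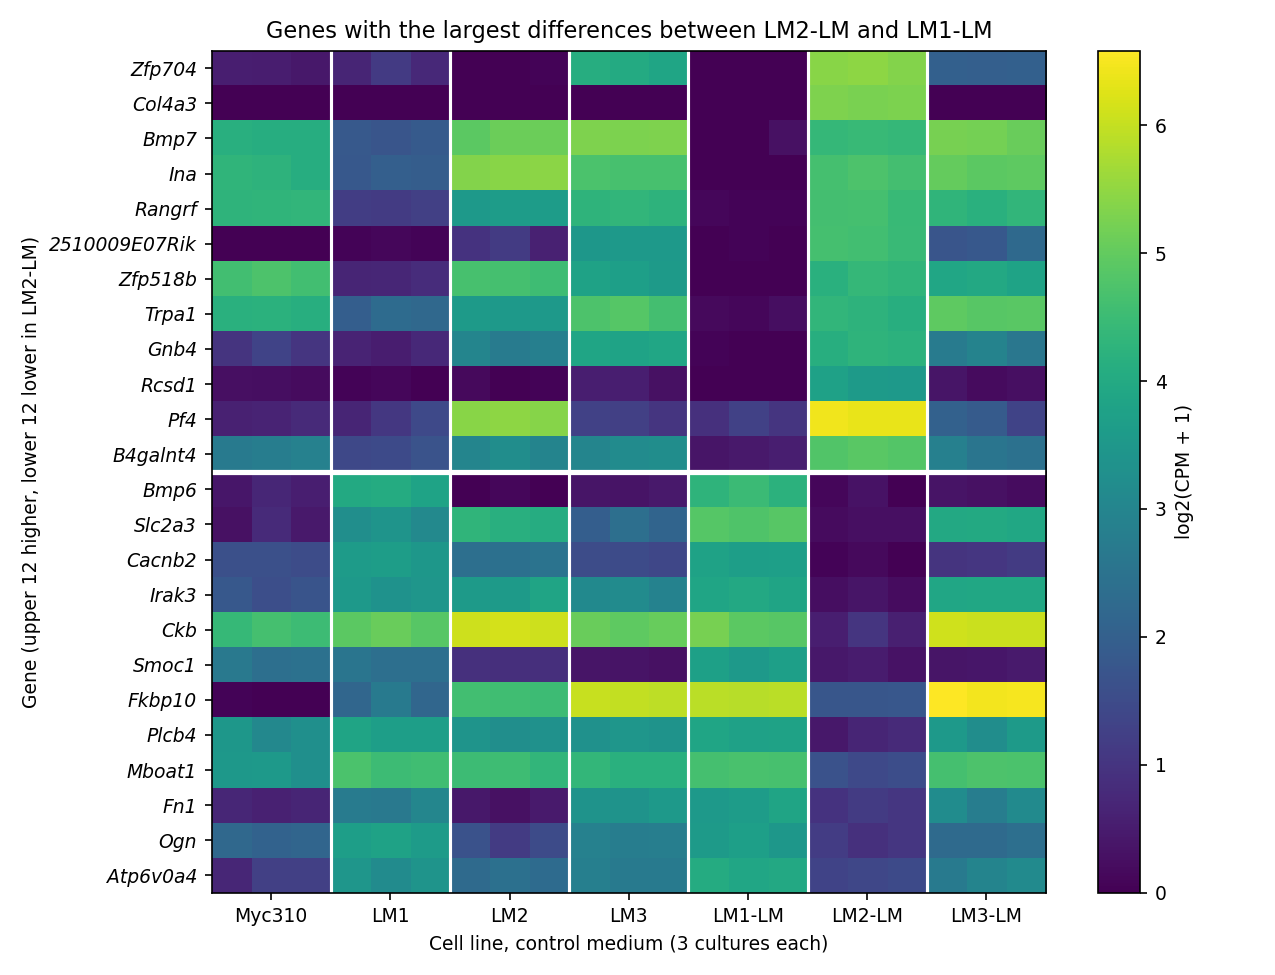
Heat map of the 12 genes with the largest rise and the 12 with the largest fall in LM2-LM (rows), in each of 3 cultures of the 7 lines of the lineage (columns), coloured by log2(CPM + 1). The LM2-LM and LM1-LM columns contrast in every row, for example Pf4 at 80.9 to 86.2 against 0.898 to 1.40 CPM, and Col4a3 is at 0 in all lines but LM2-LM.

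Among the genes that fell most in LM2-LM, Slc2a3, the glucose transporter GLUT3, was at 0.153, 0.211 and 0.202 CPM in LM2-LM and at 27.9, 26.3 and 28.2 CPM in LM1-LM. Its log2 fold change was -7.15 ± 0.19, and the predicted gene Gm4482 overlaps it, so that reads of the pair may have been divided. Mean Slc2a3 was 0.441 CPM in Myc310 and 3.50 to 17.2 CPM in LM1, LM2, LM3 and LM3-LM, which put LM2-LM at the bottom and LM1-LM at the top of the lineage. Cacnb2, a beta subunit of voltage-gated calcium channels, had 1, 3 and 0 counts in LM2-LM against 12.9, 11.8 and 12 CPM in LM1-LM, at least 101.3-fold lower. Irak3, a negative regulator of Toll-like receptor signalling, was at 0.191, 0.296 and 0.162 CPM against 13.6, 14.7 and 13.3 CPM, a log2 fold change of -5.98 ± 0.18.

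Ckb, the brain-type creatine kinase, was at 0.459, 1.02 and 0.486 CPM in LM2-LM and at 36.4, 29.6 and 28.4 CPM in LM1-LM, a log2 fold change of -5.60 ± 0.16. Ckb was expressed in every other line, at means of 22.05 CPM in Myc310, 30.2 in LM1, 67.7 in LM2, 31.6 in LM3 and 66.0 in LM3-LM. LM2-LM therefore stood apart from all 6 other lines for this gene. The same was seen for Plcb4, a phospholipase C gene, at 0.344, 0.592 and 0.729 CPM in LM2-LM, 13.6, 12.5 and 12.9 CPM in LM1-LM and means of 8.76 to 12.4 CPM in the other 5 lines, with a log2 fold change of -4.55 ± 0.18. Mboat1, a lysophospholipid acyltransferase gene, was at 2.14, 1.73 and 1.94 CPM in LM2-LM and 23.8, 24.7 and 24.2 CPM in LM1-LM, with means of 9.97 to 25.0 CPM in the other 5 lines.

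Of the remaining genes in this direction, Fkbp10, an endoplasmic reticulum prolyl isomerase that assists collagen folding, was at 2.41, 2.41 and 2.43 CPM in LM2-LM and at 59.1, 57.8 and 58.4 CPM in LM1-LM, a log2 fold change of -4.59 ± 0.09. Its level varied widely over the lineage, from a mean of 0.0132 CPM in Myc310 and 4.19 in LM1 to 22.5 in LM2, 61.9 in LM3 and 90.4 in LM3-LM. Fn1, which encodes fibronectin, was at 0.955, 1.23 and 1.05 CPM against 10.8, 11.5 and 13.3 CPM, a log2 fold change of -3.46 ± 0.16. The matricellular gene Smoc1 was at 0.344, 0.423 and 0.243 CPM against 12.4, 10.9 and 12.2 CPM, with a log2 fold change of -5.12 ± 0.18. The small proteoglycan gene Ogn was at 1.26, 0.888 and 1.05 CPM against 11.1, 12.2 and 10.1 CPM, with a log2 fold change of -3.37 ± 0.15. The 12th gene was Atp6v0a4, a subunit of the vacuolar proton pump, at 1.49, 1.65 and 1.78 CPM against 15.6, 13.9 and 14.6 CPM. It shares sequence on its strand with D630045J12Rik, whose reads may not be separable from it, and it lies in a region of chromosome 6 described below.

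The abundant genes with large differences were looked at apart from the rest because the rule above ranks by ratio and names mainly genes of low level; they were chosen after their values were seen. Among the 7 above 100 CPM that rose more than 2-fold, Fbp2, a fructose bisphosphatase, was at 151, 136.6 and 138.2 CPM in LM2-LM and at 30.6, 32.0 and 26.5 CPM in LM1-LM, a log2 fold change of 2.25 ± 0.06. The planar polarity cadherin gene Celsr1 was at 118, 126 and 121 CPM against 28.6, 32.8 and 33.4 CPM. The matrix metalloproteinase gene Mmp2 was at 144.7, 139.3 and 142.5 CPM against 54.1, 54.8 and 54.8 CPM, a log2 fold change of 1.38 ± 0.04. The other four were Mindy1, Padi4, Rpl22l1 and Bcat1, with log2 fold changes of 1.01 to 1.85.

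Among the 18 abundant genes that fell, Akr1b3, an aldose reductase, was at 306.6, 298.1 and 302.2 CPM in LM2-LM against 1037, 947 and 944 CPM in LM1-LM. The log2 fold change of Akr1b3 was -1.69 ± 0.03, and that of Gm6644, a processed pseudogene with which it may share reads, was -1.68. The non-muscle myosin heavy chain gene Myh9 was at 472, 475 and 487 CPM against 1104, 1126 and 1300 CPM, with a log2 fold change of -1.30 ± 0.04. Spp1, which encodes osteopontin, was at 113, 110.9 and 111.2 CPM against 255, 241 and 237 CPM, with a log2 fold change of -1.13 ± 0.03. In each of these genes the cultures of the lines did not overlap. Of the 18 genes, 14 lay in the stretches of chromosomes 4 and 6 described next, 8 of them on chromosome 4 and 6 on chromosome 6, Akr1b3 included.

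Neighbouring genes at the distal end of chromosome 4 were lower together in LM2-LM. The stretches were delimited after the values were seen, as runs of tested genes over which a running median log2 fold change was at or below -0.5. The running median took 51 neighbouring genes, and fewer within 25 genes of a chromosome end. The stretches are given as a description, and the members' shares are given beside those of all other autosomal genes. The stretch on chromosome 4 ran from Nmnat1 to Noc2l (149467572 to 156247616 on GRCm38), the last tested gene of the chromosome. It held 81 of the 808 tested genes of that chromosome, with a median log2 fold change of -0.94 and quartiles of -1.03 and -0.80, close to a halving of the transcript level on a linear scale. In it, 67 genes (82.7%) were lower in LM2-LM, 27 of them by more than 2-fold, and 2 were higher. Across the 9 pairs of 1 LM2-LM and 1 LM1-LM culture the median lay between -0.96 and -0.91.

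Genes in this chromosome 4 stretch spanned unrelated functions and levels. Eno1, the glycolytic enzyme enolase, was at 1134, 1126 and 1149 CPM in LM2-LM and at 1997, 1917 and 1879 CPM in LM1-LM, a log2 fold change of -0.77 ± 0.03. The G protein subunit gene Gnb1 was at 254.5, 250.5 and 252 CPM against 504, 503 and 492 CPM, a log2 fold change of -0.99 ± 0.02. Agrn, which encodes the basement membrane proteoglycan agrin, was at 54.2, 51.6 and 55.4 CPM against 117, 112 and 115 CPM, a log2 fold change of -1.09 ± 0.04. In all 3 genes the cultures of the lines did not overlap. H6pd, a hexose-6-phosphate dehydrogenase of the endoplasmic reticulum, was at 75, 79 and 73.8 CPM against 158, 162 and 177 CPM. The largest fold among genes above 10 CPM here was that of Smim1, a small membrane protein, at 3.97, 4.61 and 4.01 CPM against 15.6, 14 and 14.7 CPM (log2 fold change -1.81 ± 0.09). The exceptions included the first gene of the stretch, Nmnat1, at 10.7, 11.6 and 10.5 CPM against 10.8, 11.5 and 9.76 CPM, and Lzic (0.18) and Megf6 (1.30), which were the 2 that were higher in LM2-LM.

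Measured from Myc310, the chromosome 4 stretch was low in LM2-LM and close to 0 in the other 5 derived lines. The median log2 difference from Myc310 over its genes was -0.87 in LM2-LM, and 0.02 in LM1, -0.05 in LM2, 0.01 in LM3, 0.02 in LM1-LM and -0.04 in LM3-LM. On chromosome 4 before the stretch, the tested genes from the first to the 700th had a median log2 fold change of 0.02 between LM2-LM and LM1-LM. Genomic DNA was not analysed here.

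Chromosome 6 held 2 further stretches near its proximal end. The first, from Gm20559 to Capza2 (3333194 to 17666972), held 39 tested genes with a median log2 fold change of -0.59, of which 34 (87.2%) were lower in LM2-LM and 0 higher. The other, from Irf5 to Agk (29526625 to 40396762), held 61 genes with a median of -0.83, of which 50 (82%) were lower and 2 higher. Taken with the genes between them, the 125 tested genes from Gm20559 to Dennd11 had a median of -0.60, with 104 lower and 2 higher. Genes here included the caveolar coat gene Cav1, at 197, 194 and 199.8 CPM in LM2-LM against 464, 476 and 484 CPM in LM1-LM, and the actin-binding gene Cald1, at 172, 170.4 and 175 CPM against 479.9, 489.7 and 528 CPM. The log2 fold changes were -1.27 ± 0.02 for Cav1 and -1.53 ± 0.03 for Cald1.

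Relative to Myc310, LM1-LM lay away from 0 over one of the chromosome 6 stretches and close to it over the other. Over the stretch from Irf5 to Agk the median log2 difference from Myc310 was -0.44 in LM2-LM and 0.33 in LM1-LM, with 0.39 in LM1, -0.10 in LM2, -0.18 in LM3 and 0.01 in LM3-LM. Over the stretch from Gm20559 to Capza2 it was -0.47 in LM2-LM and 0.08 in LM1-LM, with 0.10 in LM1, 0.03 in LM2, -0.19 in LM3 and 0 in LM3-LM. The middle of the chromosome gave a contrasting picture: over 290 tested genes that begin at Gm7887, LM2-LM and LM1-LM stood equally below Myc310, at -0.38 and -0.39, and LM1 stood at -0.37, so that the median between LM2-LM and LM1-LM was 0.01 there.

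Across the 3 stretches, 151 of 181 tested genes (83.4%) were lower in LM2-LM, beside 20.3% of the 12482 autosomal genes tested elsewhere, a share that the way they were delimited fixes in direction. They held 55 of the 383 genes that fell by more than 2-fold (14.4%). Whole chromosomes differed little. The chromosome medians ran from -0.04 on chromosome 6 to 0.039 on chromosome 1, a span of 0.079. The highest window of 51 genes reached only 0.17, on chromosome 12, where the named gene by the same rule was the orphan receptor gene Gpr135 (log2 fold change 0.80).

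**Figure D2:**
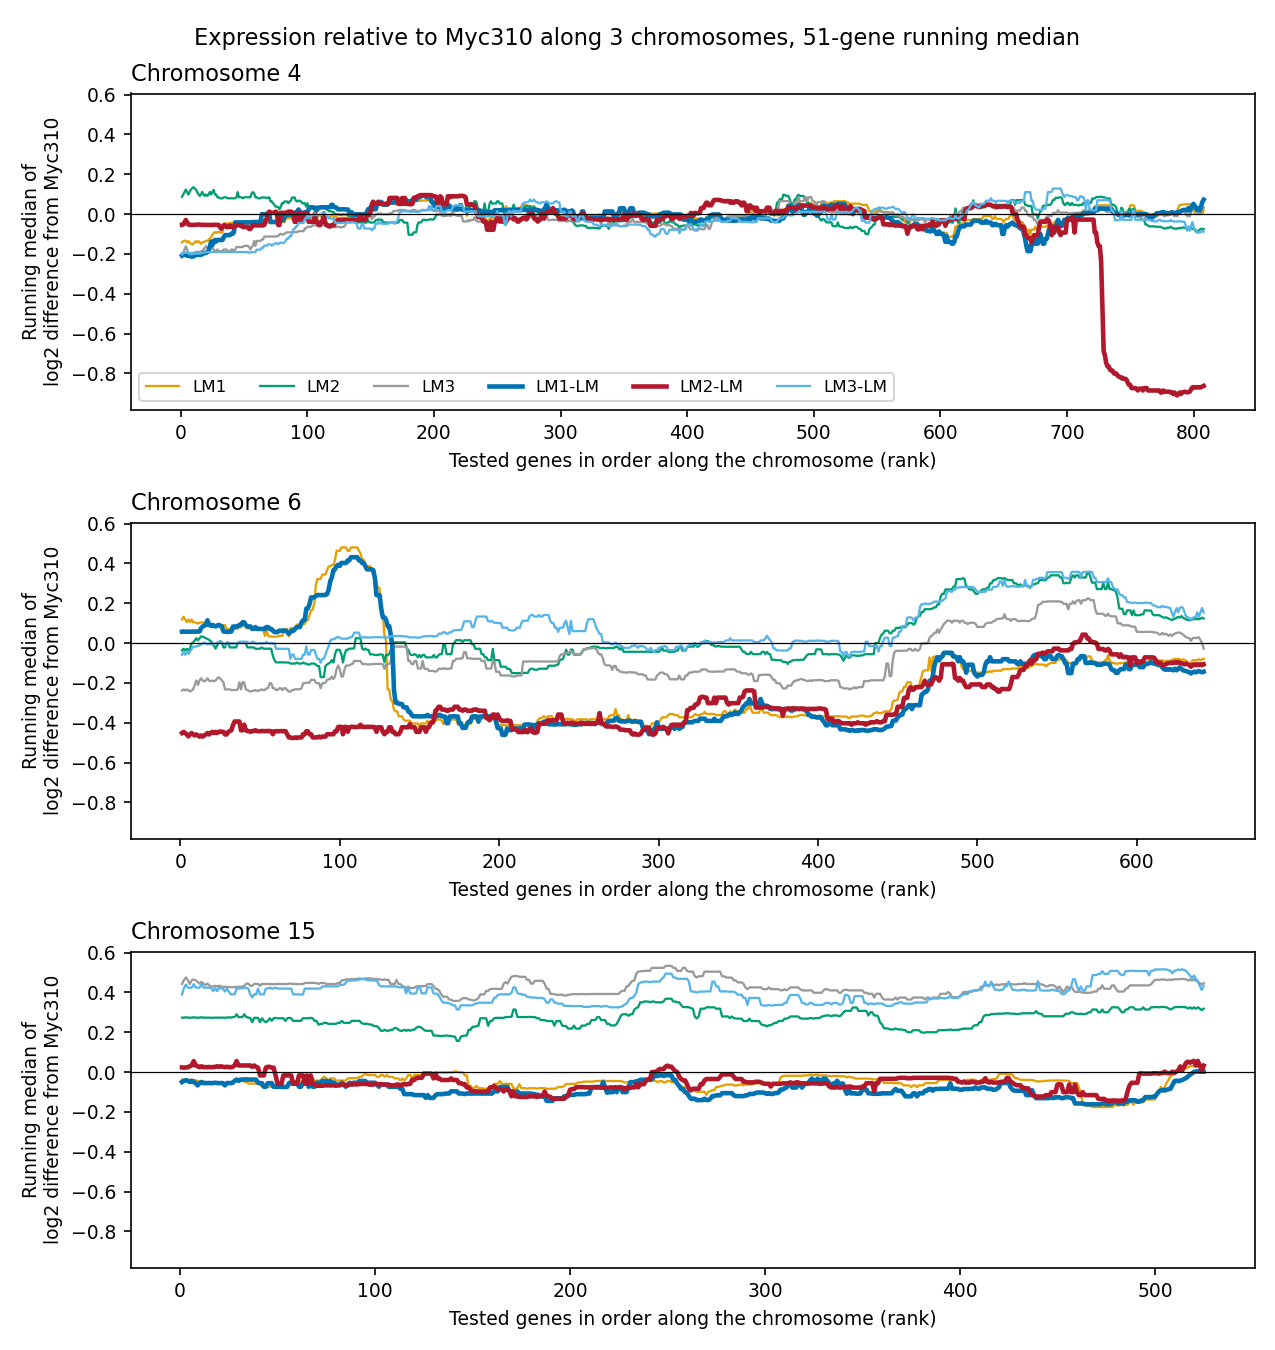
Running median over 51 neighbouring tested genes (fewer near the chromosome ends) of the log2 difference from Myc310, for each of the 6 derived lines, against the rank of genes along chromosomes 4, 6 and 15. LM2-LM alone drops at the end of chromosome 4 (median -0.87 over the stretch), LM2-LM lies below the other lines at the start of chromosome 6, and on chromosome 15 both LM2-LM (median -0.05) and LM1-LM (-0.09) stay near 0 while LM2, LM3 and LM3-LM lie at 0.27 to 0.43.

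Genes of sterol and fatty acid synthesis and uptake were the list that moved most nearly as a whole. The mevalonate pathway builds cholesterol from acetyl-CoA, and its enzymes are transcribed under the sterol-sensing factor SREBP2, encoded by Srebf2. Of 32 tested autosomal members, 31 (96.9%) were higher in LM2-LM and 0 were lower, beside 23.8% and 21.2% of all genes tested. The median log2 fold change was 0.44, beside 0.01 for all genes, and 2 of the 31 exceeded 2-fold. Their summed level was 4633 to 4682 CPM in LM2-LM and 3560 to 3849 CPM in LM1-LM. The exception was Pmvk, phosphomevalonate kinase, at 8.52, 6.13 and 7.77 CPM against 7.82, 8.03 and 6.66 CPM (adjusted p = 0.981, edgeR's quasi-likelihood test).

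In the synthesis pathway, Hmgcs1, HMG-CoA synthase, was at 84.7, 83.8 and 78.3 CPM in LM2-LM and at 57.2, 48.3 and 46.5 CPM in LM1-LM, a log2 fold change of 0.70 ± 0.06. Fdps, farnesyl diphosphate synthase, was at 92.3, 89.8 and 85.9 CPM against 51.2, 42.6 and 36.9 CPM, a log2 fold change of 1.03 ± 0.07. Fdft1, squalene synthase, was at 30.8, 30.1 and 30.8 CPM against 20.6, 18.1 and 14.4 CPM, a log2 fold change of 0.78 ± 0.08. For Hmgcs1, Fdps and Fdft1 every LM2-LM culture lay above every LM1-LM culture. The LM1-LM cultures were also the more scattered, with a range for Fdps of 36.9 to 51.2 CPM beside 85.9 to 92.3 CPM in LM2-LM.

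Srebf2 itself rose by 0.32 ± 0.04 on the log2 scale. Among fatty acid enzymes, the desaturase gene Fads2 rose by 0.53 ± 0.06 and the fatty acid synthase gene Fasn by 0.20 ± 0.03.

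The level of the sterol list over the lineage went with the set of lines that also had cystine-free libraries. Its median log2 difference from Myc310 was -0.11 in LM1 and -0.15 in LM1-LM, which like Myc310 have such libraries. It was 0.44 in LM2, 0.16 in LM3, 0.31 in LM2-LM and 0.37 in LM3-LM, which have none. Other lists also split between these lines. Immediate early genes were at -0.05 in LM1 and -0.08 in LM1-LM, and at 0.07 to 0.37 in the lines without such libraries. Glycolysis and hypoxia genes were at -0.04 in LM1 and 0.02 in LM1-LM, and at 0.05 to 0.21 in the lines without them. Whether the handling of the medium had a part in these differences cannot be told apart from the lines here.

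RefSeq promoters on GRCm38.p6 were searched over the 250 bases before each start site for the sterol regulatory element TCACNCCAC on both strands. The motif was found in 1 of the 21 list members present in the promoter table (4.76%), Hmgcs1, and in 331 of all 27025 genes with a promoter there (1.22%). The Hmgcs1 promoter is shown because this gene rose with the list and holds the 1 match. It is at chr13:119690101-119690350 on the plus strand, and the capitals mark the element, 137 to 129 bases before the start site. A match is a description of the letters and no evidence of binding.
Hmgcs1: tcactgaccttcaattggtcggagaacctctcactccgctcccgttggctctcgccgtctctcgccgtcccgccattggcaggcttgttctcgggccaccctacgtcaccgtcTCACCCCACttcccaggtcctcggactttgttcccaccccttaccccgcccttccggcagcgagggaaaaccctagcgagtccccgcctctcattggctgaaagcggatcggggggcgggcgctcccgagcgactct

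**Figure D3:**
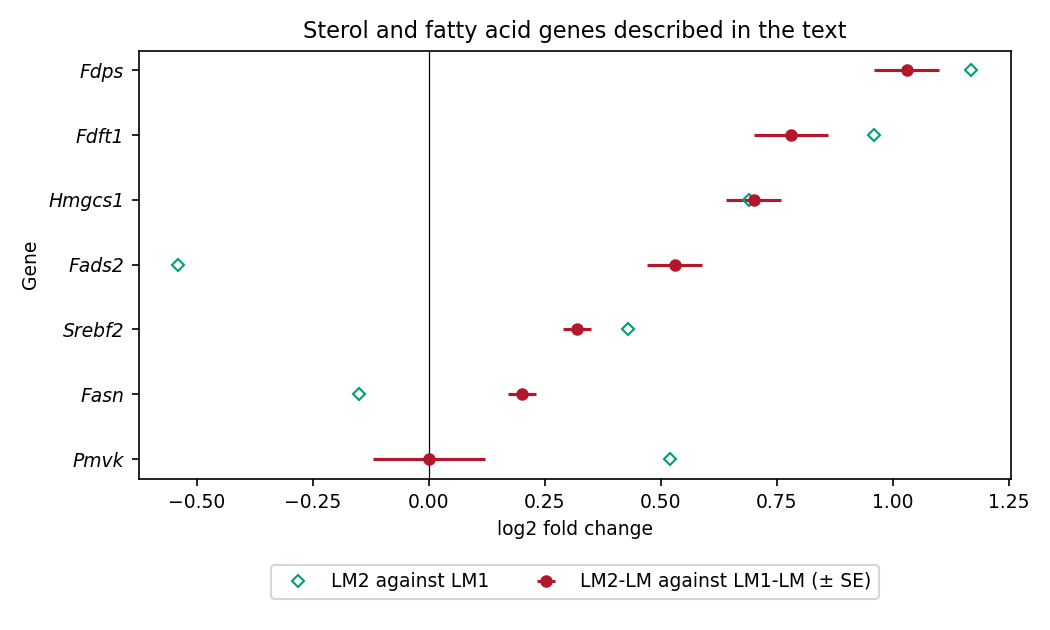
Log2 fold change of the 7 sterol and fatty acid genes described in the text for LM2-LM against LM1-LM (filled points, bars are standard errors) and for LM2 against LM1 (open diamonds, no error drawn). In LM2-LM against LM1-LM all but Pmvk, which lies at 0, passed the test, from 0.20 for Fasn to 1.03 for Fdps, and Fads2 and Fasn lie on the other side of 0 in LM2 against LM1.

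Glycolysis and hypoxia genes rose in part. Of 32 members tested, 18 were higher and 3 lower in LM2-LM, with a median of 0.12. Here and in the lists below, the counts stand beside 23.8% higher, 21.2% lower and a median of 0.01 over all autosomal genes tested, and no list was tested against them. The glycolytic regulators Pfkfb4 (23.5, 20.0 and 22.2 against 7.26, 8.27 and 9.06 CPM) and Pfkfb3 (82.6, 86.8 and 81.2 against 42.5, 41.6 and 41.9 CPM) had log2 fold changes of 1.42 ± 0.09 and 0.99 ± 0.04. Vegfa, the endothelial growth factor gene, was at 39.6, 36.4 and 37.8 CPM against 18.4, 18.4 and 17.1 CPM, a log2 fold change of 1.08 ± 0.07. The glucose transporter Slc2a3 moved the other way, as given above. The amino acid deprivation genes had 20 of 36 members higher and 5 lower, with a median of 0.13. The pseudokinase gene Trib3 rose by 0.68 ± 0.09 and the alanine transaminase gene Gpt2 by 0.68 ± 0.06, whereas the stress gene Nupr1 fell by 0.61 on the log2 scale.

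Among signalling lists, 12 of 26 TGF-beta and BMP genes were lower and 2 higher, with a median of -0.22, beside 21.2% lower and 23.8% higher over all genes. Besides Bmp7 and Bmp6, the signal transducer gene Smad3 was at 15.3, 15.6 and 16.3 CPM in LM2-LM against 43.0, 42.8 and 38.7 CPM in LM1-LM, a log2 fold change of -1.40 ± 0.07. The BMP target Id2 was at 8.41, 7.53 and 9.39 CPM against 13.1, 16.8 and 18.4 CPM, a log2 fold change of -0.93 ± 0.11. Targets of the coactivator YAP were lower for 12 of 18 and higher for 3, with a median of -0.12. The tumour suppressor gene Dlc1 (-1.36 ± 0.10) and Gadd45b (-1.09 ± 0.09) were among the lower, and Nt5e (0.81) and Wwc1 (0.56) among the higher.

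Of 13 Notch genes 7 were higher and 0 lower, with a median of 0.20, including the ligand Jag1 (0.77 ± 0.07) and the receptor Notch1 (0.61 ± 0.09). Growth factor ligands and receptors had 14 of 28 higher and 7 lower. The VEGF receptor gene Flt1 was at 66.1, 62.1 and 68.8 CPM against 25.6, 25.1 and 27.7 CPM (1.33 ± 0.05), and the ligand gene Gas6 rose by 1.25 ± 0.10. The growth factor binding gene Igfbp7 (-1.37 ± 0.06) and the ligand gene Pdgfc (-1.33 ± 0.11) fell. The Wnt list was near the shares over all genes, with 6 of 19 higher and 5 lower, the Wnt-inactivating carboxylesterase gene Notum (-2.86 ± 0.17) and the ligand gene Wnt10a (-1.84 ± 0.13) being lower.

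Immediate early and feedback genes had 16 of 30 members higher and 5 lower, with a median of 0.17. The ERK phosphatase gene Dusp6 was at 178, 179 and 174 CPM against 103, 104 and 99.2 CPM, a log2 fold change of 0.79 ± 0.03, while Dusp1 (-0.54 ± 0.05) and Klf2 (-0.56 ± 0.11) fell. Among semaphorins, ephrins and plexins 11 of 31 were higher and 9 lower. The semaphorin and VEGF coreceptor gene Nrp1 was at 0.344, 0.0423 and 0.0809 CPM in LM2-LM and at 7.82, 9.55 and 7.91 CPM in LM1-LM, a log2 fold change of -5.67 ± 0.31.

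DNA replication and mitosis genes were mostly lower by small amounts. Of 35 tested, 20 were lower in LM2-LM and 5 higher, with a median of -0.13. The replication genes Gins2 (-0.48 ± 0.07), Pole (-0.39 ± 0.04), Tk1 (-0.35 ± 0.04) and Mcm7 (-0.26 ± 0.03) had the largest changes above 5 CPM. In the cyclin and p53 list 8 of 24 were higher and 5 lower. The cyclin-dependent kinase inhibitor gene Cdkn1a was at 198, 197 and 201 CPM against 113, 109 and 110.4 CPM, a log2 fold change of 0.85 ± 0.03, and the p53 target Perp rose by 1.02 ± 0.05. Another inhibitor of cyclin-dependent kinases, Cdkn2c, was at 22.4, 22.2 and 22.7 CPM against 50.6, 51.7 and 47.9 CPM, a log2 fold change of -1.16 ± 0.05. Myc, the lineage's oncogene, was at 1176, 1153 and 1166 CPM against 1094, 1068 and 1033 CPM, a log2 fold change of 0.13 ± 0.02.

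Of 22 mesenchymal genes 12 were lower and 4 higher, with a median of -0.12, and of 31 extracellular matrix genes 14 were lower and 9 higher, with the same median, beside 21.2% lower and 23.8% higher over all genes. Beyond Fn1 and Agrn, the fibril-associated collagen gene Col12a1 was at 1.38, 1.90 and 2.06 CPM against 9.66, 9.80 and 11.2 CPM (-2.52 ± 0.16), and Col8a1 was at 14.3, 13.1 and 14.7 CPM against 41.5, 45.1 and 41.4 CPM (-1.60 ± 0.08). S100a4 fell by 0.74 ± 0.02 on the log2 scale, while the forkhead factor gene Foxc2 (1.33 ± 0.10) and Mmp2 rose. The fibroblast markers, most of whose level was Col3a1, were also lower in LM2-LM (33.7 to 35.8 against 56.9 to 62.7 CPM), and their part in the result was not tested.

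Proteases and their inhibitors had 9 of 21 members higher and 5 lower, with a median of 0.21. The serpin gene Serpine2 was at 35.4, 38.8 and 35.9 CPM against 11.8, 11.5 and 9.62 CPM (1.73 ± 0.06), and the plasminogen activator gene Plat rose by 1.26 ± 0.06.

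Epithelial genes, keratins among them, did not move as a list, with 5 of 12 higher, 4 lower and a median of 0. Krt7 and Krt19, given above, were among the 4 lower. The desmosomal gene Dsp was at 5.58, 5.92 and 7.61 CPM in LM2-LM against 0.727, 0.947 and 0.878 CPM in LM1-LM, a log2 fold change of 2.89 ± 0.16. Jup, which encodes its binding partner plakoglobin, went the other way, at 48.8, 51.2 and 48.4 CPM against 92.9, 93.6 and 95.4 CPM (-0.93 ± 0.04). Mammary luminal genes had 4 of 10 higher and 3 lower, the kappa-casein gene Csn3 being lower by 2.00 ± 0.13 on the log2 scale, and mammary basal genes had 4 of 8 higher and 3 lower. Integrins were divided evenly, with 6 of 16 higher and 6 lower. The list of keratins had 5 of 14 higher and 3 lower, and that of S100 and Ly6 genes 3 of 14 higher and 7 lower.

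Among immune genes, 5 of 31 interferon-stimulated genes were higher and 9 lower, with a median of -0.05, beside 23.8% higher and 21.2% lower among all genes tested. Of the 9 lower members, 3 lie in the stretches of chromosomes 4 and 6 and 6 elsewhere. The lowest log2 fold changes were those of Samd9l (-2.23 ± 0.10) and the ADP-ribosyltransferase gene Parp12 (-1.57 ± 0.07), both in the chromosome 6 stretches. MHC class I genes had 6 of 19 higher and 2 lower, and chemokines and cytokines 4 of 16 higher and 6 lower, the chemokine gene Ccl2 falling by 0.58 ± 0.06. Imprinted genes had 3 of 10 higher and 1 lower.

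Genes of cysteine and glutathione metabolism, the subject of the study, were followed one by one. Cbs, the entry enzyme of transsulfuration, was near the limit of detection, at 0.650, 0.338 and 0.445 CPM in LM2-LM and at 3, 0 and 1 counts in LM1-LM, at least 3.68-fold higher (adjusted p = 0.00094, edgeR's quasi-likelihood test). Cth, which completes transsulfuration, was at 22.3, 24.3 and 24.1 CPM against 23.2, 24.1 and 25.4 CPM and did not pass the test (adjusted p = 0.629). The cystine transporter gene Slc7a11 was at 8.75, 9.30 and 8.22 CPM against 9.70, 10.7 and 9.52 CPM (adjusted p = 0.0927). Its cultures did not overlap, yet the difference missed the threshold.

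The 3 genes of glutathione synthesis, Gclc, Gclm and Gss, were lower in LM2-LM by small amounts. Gclc, the catalytic subunit of the limiting enzyme, was at 70.7, 71.4 and 71.8 CPM against 85.2, 81.9 and 83.8 CPM, a log2 fold change of -0.23 ± 0.04. Its modifier subunit gene Gclm fell by 0.14 ± 0.03, glutathione synthetase Gss by 0.22 ± 0.05, and glutathione reductase Gsr by 0.18 ± 0.03. Gpx3, a secreted glutathione peroxidase, was at 0.611, 1.18 and 0.647 CPM against 0.385, 0.741 and 1.06 CPM (adjusted p = 0.789). Gpx4, the peroxidase that reduces lipid hydroperoxides, was at 199, 182 and 189.7 CPM against 234, 228 and 221 CPM, a log2 fold change of -0.26 ± 0.04, and Gpx1 fell by 0.19 ± 0.03. Higher members of the list were the aminopeptidase gene Anpep, at 13.3, 15.1 and 16.5 CPM against 8.89, 9.05 and 10.5 CPM (0.66 ± 0.09), and the gamma-glutamyltransferase family genes Ggt1 (2.47 ± 0.51) and Ggt7 (1.62 ± 0.27), both of low level. Over the whole glutathione list 6 of 20 members were higher and 6 lower, with a median of 0, and over transsulfuration and methionine genes 3 of 16 were higher and 5 lower. Glutathione S-transferases had 6 of 15 higher and 2 lower, Mgst1 (1.41 ± 0.12) having the largest change among members above 5 CPM. Of 27 targets of the oxidative stress factor NRF2, 11 were lower and 5 higher, including Akr1b3, the quinone reductase gene Nqo1 (-1.10 ± 0.13) and Srxn1 (-0.54 ± 0.04), with a median of -0.06.

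**Figure D4:**
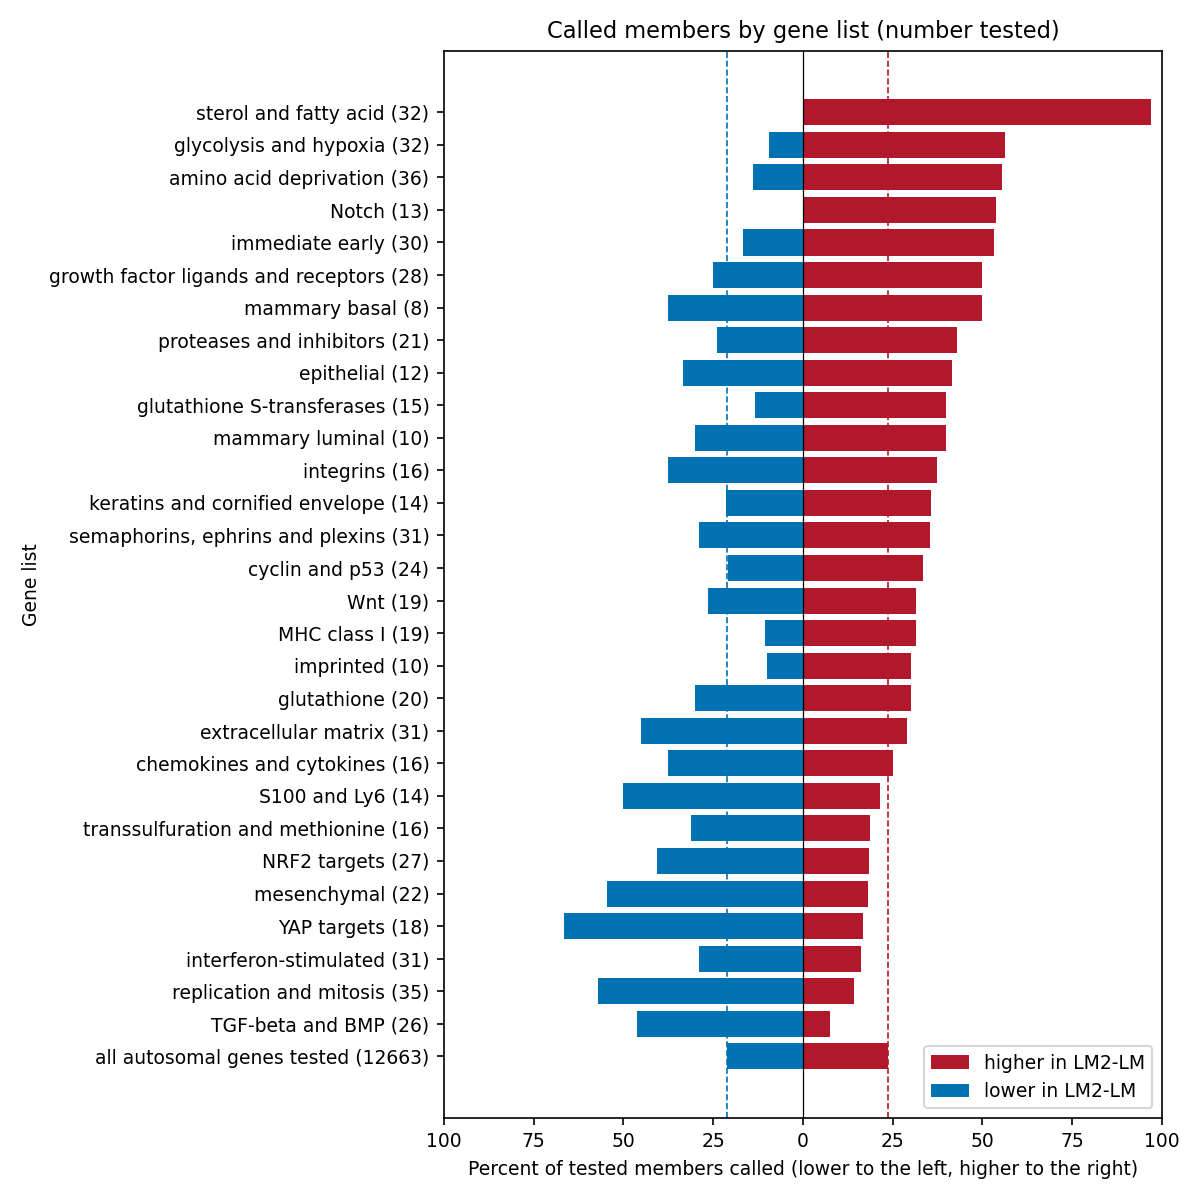
Members called higher and lower in LM2-LM against LM1-LM for each gene list, as a percentage of the members tested, beside the same percentages for all autosomal genes tested (23.8% higher, 21.2% lower). The sterol and fatty acid list stands at 96.9% higher and 0 lower, and replication and mitosis, YAP targets and mesenchymal genes hold more lower than higher members.

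LM2 and LM1, the lines of the same numbers that had passed through the lung before, gave a separate set of 6 libraries. The lines themselves are related, since LM1-LM was recovered after injection of LM1 cells, and LM1-LM differed from LM1 by more than 2-fold in only 250 genes, so that genes shared between the pairs include what LM1-LM and LM1 have in common by descent. The line injected to obtain LM2-LM is not named, and LM2 is not taken here as its parent. Cultures of LM2-LM correlated with those of LM2 at 0.9584 to 0.9604 and with those of LM1 at 0.9704 to 0.9715. No library is shared between LM2 against LM1 and LM2-LM against LM1-LM, and as with the later lines, LM1 has cystine-free libraries and LM2 has none. LM2 against LM1 gave 6731 genes past the threshold (53.2%), and 1149 above 2-fold (9.07%), of which 924 were higher (7.3%) and 225 lower (1.78%). In both pairs 2690 genes passed in the same direction, which is 47.3% of the LM2-LM against LM1-LM list and 40% of the LM2 against LM1 list, and 1024 passed in opposite directions. Above 2-fold, 356 genes were shared in direction (40.8% and 31% of the lists), 290 of them higher and 66 lower, and 98 were opposite. Of the 872 genes above 2-fold between LM2-LM and LM1-LM, 68.8% had the same sign between LM2 and LM1, beside 60.2% of all genes tested.

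The difference between the pairs was tested as an interaction term in the same model. It passed the threshold for 5269 genes (41.6%), 2588 with the more positive (20.4%) and 2681 with the more negative difference (21.2%) in LM2-LM against LM1-LM. Interactions above 2-fold numbered 1003 (7.92%), 732 of them negative (5.78%). For genes chosen by their difference between LM2-LM and LM1-LM, that difference is part of the interaction, so their values in the pairs are given side by side and nothing is read from the interaction. Ckb was higher in LM2 than in LM1, with a log2 fold change of 1.16, beside -5.60 in LM2-LM against LM1-LM, and Fkbp10 had 2.41 beside -4.59. Pf4 was higher in LM2 than in LM1 (5.17) and in LM2-LM than in LM1-LM (6.21). Fn1 was lower in both pairs, with log2 fold changes of -3.46 between LM2-LM and LM1-LM and -4.21 between LM2 and LM1. Col4a3 was at 0 in both LM1 and LM2.

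The stretches on chromosomes 4 and 6, delimited on LM2-LM against LM1-LM, were also looked at in LM2 against LM1. The chromosome 4 genes had a median of -0.05 between LM2 and LM1, with 15 higher and 25 lower of 81, beside 27.7% higher and 25.4% lower among all genes tested in LM2 against LM1, shares that apply to the next counts too. The genes from Gm20559 to Capza2 had a median of -0.09, with 9 higher and 15 lower of 39. The genes from Irf5 to Agk had a median of -0.42 between LM2 and LM1, with 5 higher and 43 lower of 61. Whole chromosomes differed more between LM2 and LM1, with medians of 0.322 on chromosome 15 and 0.276 on chromosome 6, beside 0.03 and -0.04 between LM2-LM and LM1-LM. The sterol list had 26 members higher and 3 lower in LM2 against LM1, with a median of 0.56, beside the same 27.7% and 25.4% over all genes. The interaction passed for 13 of its 32 members, near the 41.6% over all genes, 6 with the larger and 7 with the smaller difference in LM2-LM against LM1-LM. Fads2 and Fasn, higher in LM2-LM than in LM1-LM, were lower in LM2 than in LM1, with log2 fold changes of -0.54 and -0.15.

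**Figure D5:**
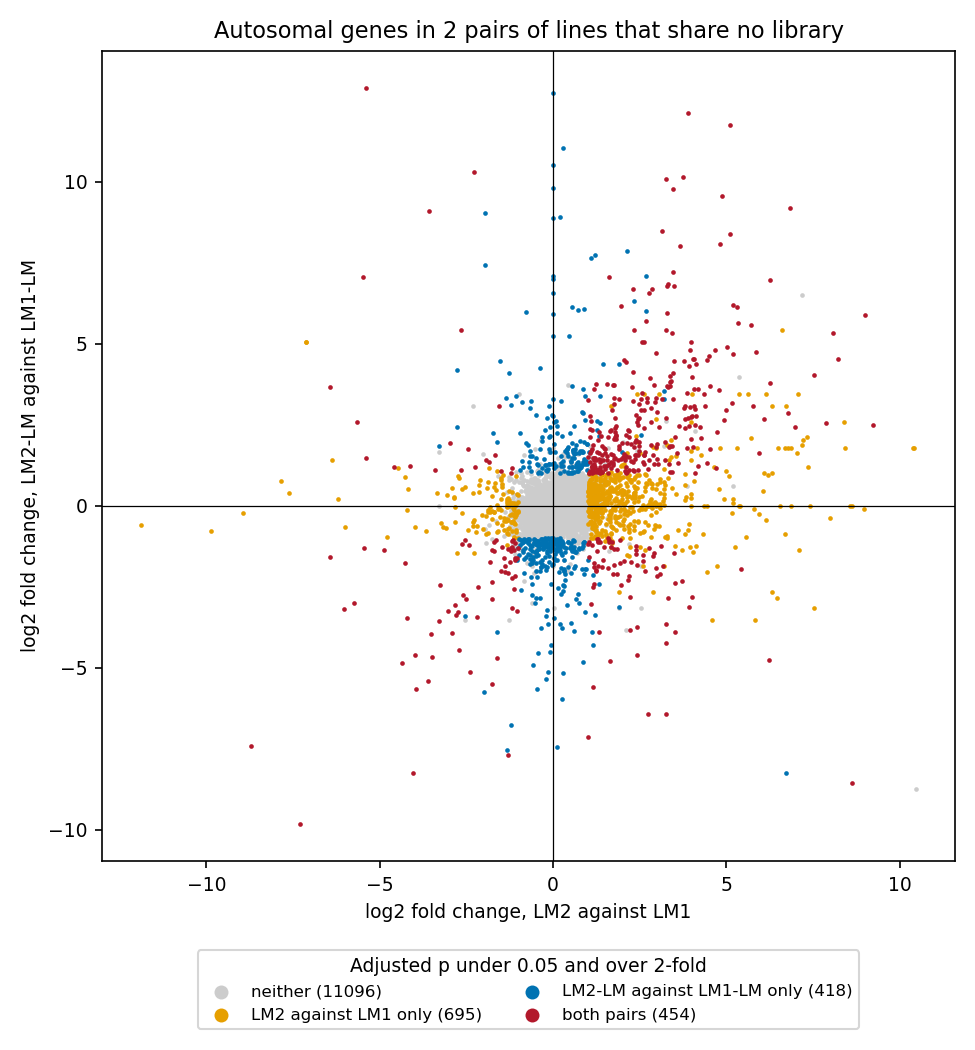
Log2 fold change of each autosomal gene tested in LM2 against LM1 (horizontal axis) and in LM2-LM against LM1-LM (vertical axis), coloured by the pair in which it passed the test and 2-fold (418 genes in LM2-LM against LM1-LM alone, 695 in LM2 against LM1 alone, 454 in both and 11096 in neither). Of the 454, the 356 with the same sign lie in the lower left and upper right of the plot and 98 in the other corners, and for genes at the floor in a line the plotted value depends on the prior count of the fit.

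Which of the lines stood apart was read from the range of the 6 other lines of the lineage. Of the 872 genes above 2-fold, LM2-LM lay above all other lines for 129 and below them for 153, LM1-LM lay above them for 57 and below for 105, and for 451 (51.7%) neither line was outside. Over all genes tested LM2-LM was outside the other 6 lines for 1903 (15%) and LM1-LM for 645 (5.09%). Counted against single lines, LM2-LM differed by more than 2-fold from Myc310 in 1170 genes, from LM1 in 913, from LM2 in 1242, from LM3 in 1072, from LM1-LM in 872 and from LM3-LM in 1185.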

How the data were processed

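Gene counts were deposited by the authors as 1 table for the series. The labels and the study's methods describe a directional polyadenylated RNA library read as paired ends, and the submitters' processing notes name STAR, RSEM, GRCm38, DESeq2 1.38.3 and R 4.2.2; the values are whole numbers per gene and were taken as raw counts. The annotation release and the strand setting of the counting are not given in the sources used here, so reads of genes overlapping on opposite strands, and of near-identical copies, may not be separated. Positions and gene types came from GENCODE mouse M21 on GRCm38; 47 identifiers without a position (0.0106% of counts) stayed out of the autosomal set.

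From the counts, the 21 control libraries of the 7 lines of the Myc310 lineage were fitted together with line as the only factor (14 residual degrees of freedom) in edgeR 4.0.16 (R 4.3.3): TMM scaling, filterByExpr by line, glmQLFit and glmQLFTest, and Benjamini-Hochberg adjustment over the 13092 genes tested, with a threshold of 0.05. CPM used the same scaling over the 21 libraries, and log2 CPM a prior count of 2. A single-gene exact permutation test of 3 cultures against 3 cannot give p below 0.1 and was not used. Depths of the 6 libraries were 21779599 to 26303095 counts, and 3 counts in a library correspond to about 0.121 CPM in LM2-LM and 0.13 CPM in LM1-LM, covering counting error only.

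Genes were named by rule: the 12 largest rises and falls as defined in the text, up to 4 called members per list with at least 5 CPM, 9 genes chosen for glutathione synthesis, transsulfuration and Myc (Cbs, Cth, Gsr, Gclc, Gclm, Gss, Gpx3, Slc7a11 and Myc), the strongest gene at 10 CPM or more in the most extreme chromosome windows, the strongest interactions among the first group (Zfp704, Rcsd1 and Ina), and the marker lists. Some genes that these rules name are not reported here. The comparison, its members and the gene lists were chosen with earlier results of these data known. Other genes in the text (other sterol genes, Gpx1, Ggt1, Ggt7, the abundant genes, and genes of the chromosome stretches beyond the rule) were chosen after their values were seen. Alternatives were other scalings (RLE, upper quartile), other filters, DESeq2 1.42.0, limma 3.58.1 with voom, a replicate block, other sets of libraries, other windows and leaving out each culture. The procedure was tested on simulated data first. No counts of 2 cultures agreed within sampling noise.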

Additional observations from a re-analysis of the deposited data

Results flagged for a closer look

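The difference between LM2-LM and LM1-LM was set against that between LM2 and LM1 by an interaction term in the same edgeR quasi-likelihood fit, and 5269 autosomal genes passed (41.6% of those tested). Among the 24 genes with the largest rise or fall, 13 had an interaction past the threshold with no line at the floor. Bmp7 had the larger rise between LM2-LM and LM1-LM, by 4.36 on the log2 scale (8.02 against 3.66), as did Trpa1 by 5.43 (7.05 against 1.61), B4galnt4 by 4.23 (6.18 against 1.96) and Pf4 by 1.04 (6.21 against 5.17).

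Slc2a3 (-8.15), Irak3 (-6.23), Ckb (-6.76) and Fkbp10 (-7.00) had estimates of opposite sign, negative between LM2-LM and LM1-LM and positive between LM2 and LM1. Smoc1 (-2.71), Plcb4 (-4.10), Mboat1 (-3.49), Ogn (-0.58) and Atp6v0a4 (-1.99) had negative estimates in both pairs, with the more negative one between LM2-LM and LM1-LM. For Plcb4 the difference between LM2 and LM1 was -0.45 and for Mboat1 -0.14, beside -4.55 and -3.64 between LM2-LM and LM1-LM. These genes were chosen for their extreme difference between LM2-LM and LM1-LM, which is part of the interaction, so that its size and direction are largely fixed by the choice and nothing is read from them. No explanation of these differences was tested.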

How the results depend on the processing

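The number of genes past the threshold was 5693 and stayed between 5512 and 5772 under RLE scaling (5671), upper quartile scaling (5678), no filter (5512), DESeq2 (5557), voom (5728) and all 30 control libraries (5772), and came to 5270 with only the lines compared and 5178 with at least 10 counts required in every library. It was 5111 to 5265 when 1 culture was left out, and the count above 2-fold was then 863 to 887. The filter of 10 counts left 10676 genes tested and lowered the count above 2-fold from 872 to 347, of which 169 were higher. With the replicate block the counts were 5670 past the threshold, 860 above 2-fold, 6712 for LM2 against LM1, 2680 shared in direction and 5243 for the interaction; the numbers did not pair the samples, since same-numbered cultures of the lines correlated at -0.017, -0.086 and -0.006. Leaving out 1 culture gave 6219 to 6323 genes for LM2 against LM1, 2458 to 2637 shared and 4886 to 5012 for the interaction. The span of the chromosome medians was 0.079, and 0.071 to 0.097 with 1 culture left out. The lowest window median was -0.982 with 51 genes, -1.034 with 25, -0.887 with windows about 2 times as wide, and -0.998 to -0.951 with 1 culture left out. Without the genes of the stretches, chosen after seeing the data, 5538 genes passed and 815 exceeded 2-fold. The sterol list had 29 to 31 members higher under the scalings, filters, tools, replicate block, sets of libraries and left-out cultures of LM2-LM and LM1-LM run for it. Of 2040 values recomputed for 138 named genes, 3 lost the threshold, all of Gstz1 with 1 culture left out. Changes of sign were counted only for genes past the threshold in the main or the alternative run, and 0 were seen. For genes past it in neither run, such as Gpx3, a change of sign was not counted. Scalings moved the median of all genes by less than 0.01. Depth limits statements on genes near 3 counts per library.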
